A study of Mus musculus with 6 samples.

Results

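The genes examined here encode the plasma proteins of blood clotting and complement that the liver makes, with a few plasma proteins that travel beside them. They were 38 genes of the 45777 in the deposited table, chosen by symbol, of which 17 act in coagulation and fibrinolysis, 15 in complement, and 6 are fetuin-A, vitronectin or inter-alpha-trypsin inhibitor heavy chains. All 38 symbols were found, and all 38 passed the filter on low counts, so none dropped out. RNA came from whole liver of C57BL/6 mice aged 10 weeks. The Pak4_KO group held 3 libraries from Alb-Cre; Pak4 flox/flox mice, in which the albumin promoter drives Cre recombinase in hepatocytes. The WT group held 3 libraries from Pak4 flox/flox mice, so both groups carried floxed Pak4 alleles and differed by the Cre transgene. The labels give neither the sex nor an identity of the animals, and p-values therefore measure the spread between these libraries. Because the tissue was whole liver, fewer cells of a type and less RNA per cell cannot be told apart.

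Coagulation is a cascade of proteases, most of them secreted by hepatocytes as inactive precursors, that ends with thrombin cutting fibrinogen into fibrin. Complement is a second cascade, in which surface recognition leads to cleavage of C3 and C5 and then to assembly of the membrane attack complex from C5b, C6, C7, C8 and C9. Hepatocytes are the main source of nearly all of these plasma proteins, and some of the genes, such as the fibrinogen chains, are induced in inflammation through interleukin-6 and STAT3.

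Pak4, the kinase gene targeted by Cre, stood at 0.760, 1.22 and 1.15 TPM (a transcript level scaled by gene length and by the library's total) in Pak4_KO replicates 1, 2 and 3. In WT it stood at 3.42, 3.95 and 3.52 TPM (edgeR adjusted p = 0.0169). The libraries held 42632491 to 48044181 reads in Pak4_KO and 39603272 to 52521400 reads in WT. The 38 genes are abundant and together made up 5.15% to 7.10% of all TPM in a library. Their summed level averaged 61940.0 ± 7831 TPM in Pak4_KO and 61937 ± 9259.5 TPM in WT (SD, n = 3 each). Most of this sum came from the fibrinogen chains, at 36557 ± 7592 TPM in Pak4_KO and 34904 ± 9761 TPM in WT. The other coagulation genes summed to 4976 ± 456 TPM in Pak4_KO and 5614 ± 246.5 TPM in WT. Complement genes summed to 7174 ± 378 and 8044 ± 574 TPM, and the other plasma genes to 13232 ± 753 and 13375 ± 390 TPM. Each of these sums overlapped between the groups. Of 12 hepatocyte markers, 11 were found in the table, none of them at 0, and 4 were positive and 7 negative. Their summed level was 50023 to 56734 TPM in Pak4_KO and 41493 to 50186 TPM in WT, and without Alb, the albumin gene, it was 21307 to 24505 TPM in Pak4_KO and 22211 to 23158 TPM in WT. The fibrinogen chain Fgb was the most abundant of the 38 genes at a mean of 15965 TPM over the 6 libraries, and the factor XI gene F11 the least abundant at 35.1 TPM.

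None of the 38 genes was called different between Pak4_KO and WT liver (edgeR quasi-likelihood test, Benjamini-Hochberg adjusted p under 0.05 over 16197 genes, the smallest member value being adjusted p = 0.439). Over all tested genes 0.469% were called. At an unadjusted p under 0.05, the edgeR test counted 6 of the 38, all lower in Pak4_KO, against 8.21% of all tested genes in either direction and 3.69% lower. These were Hrg, Hc, C4b, C6, C9 and Masp1. DESeq2 also called 0 of the 38 and counted 9 at an unadjusted p under 0.05, of which 8 were lower and Itih2 was higher, against 8.47% of all genes. With limma-voom 0 were called and 8 counted, all lower, against 8.33%. The edgeR count of 6 became 12 without Pak4_KO replicate 1, all lower, against 9.24% of all genes in that fit. It became 3 without Pak4_KO replicate 2, all lower, against 7.33%, and 2 without WT replicate 2, both lower, against 7.94%. Without Pak4_KO replicate 3 it became 3, of which 2 were lower and Itih2 was higher, against 6.29%.

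Most fitted differences were small and had a negative sign. Of the 38 genes, 33 had a negative log2 fold change (Pak4_KO over WT) and 5 a positive one, where 49.3% of all tested genes were negative. The median log2 fold change was -0.21 over the 17 coagulation genes, -0.27 over the 15 complement genes and -0.13 over the other 6, beside 0.004 over all tested genes. Of the 2128 other tested genes at least as abundant as F11, 54.3% were negative, with a median of -0.02. Members ranged from -0.71 for C9 to 0.38 for Itih2. The genes share the same 6 libraries and vary together, so their signs are not independent of each other.

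**Figure D1:**
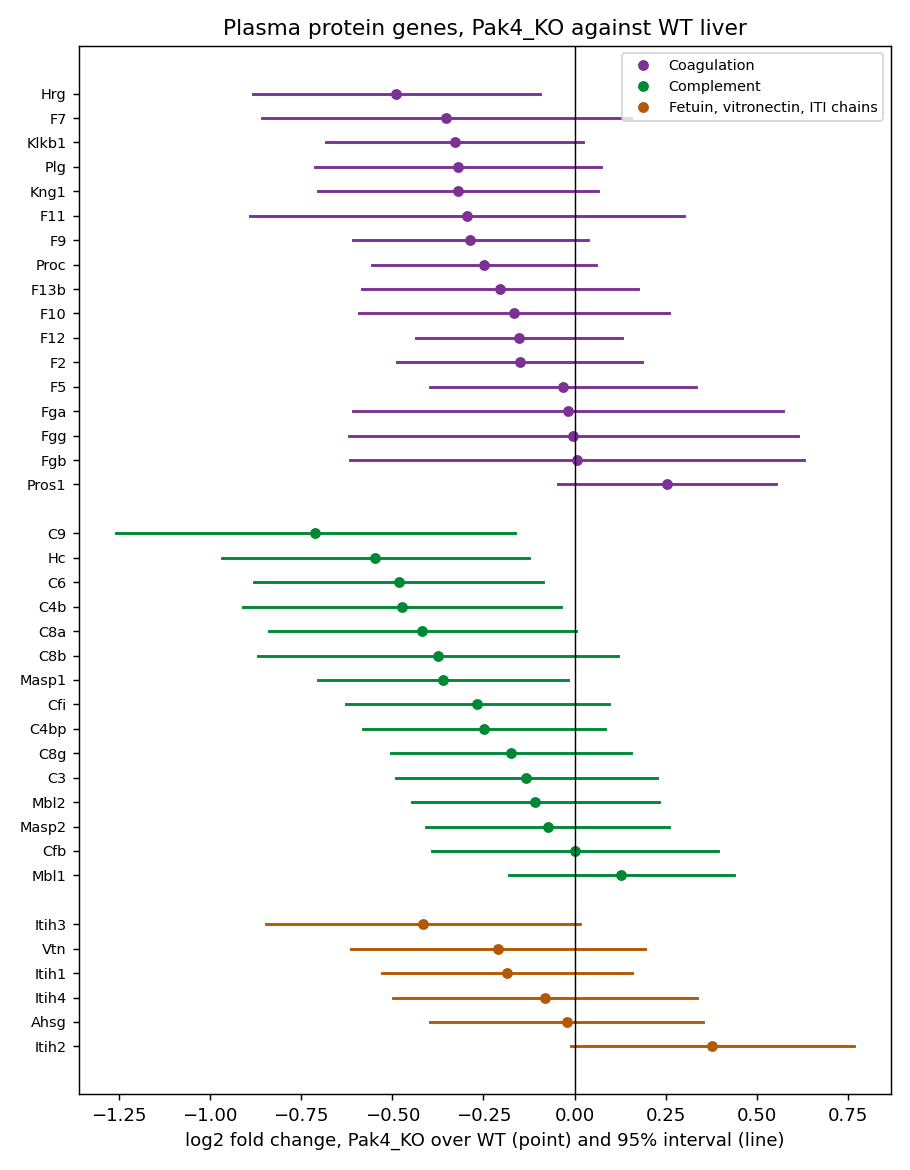
Each point is the fitted log2 fold change of a gene, Pak4_KO over WT, and each line its 95% interval, unadjusted for the number of genes. C9, Hc, C6, C4b, Masp1 and Hrg have intervals that lie below 0, and the 3 fibrinogen chains lie close to 0 with intervals reaching about 0.6 on either side.

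In TMM-scaled CPM (read counts over library size, corrected for library composition), the highest Pak4_KO value was below the lowest WT value for 12 of the 38 genes, and the reverse held for 0. Among all tested genes 6.06% were lower without overlap and 7.35% higher without overlap. Among the 2128 other tested genes at least as abundant as F11, these shares were 8.36% and 7.66%. The 12 genes were F12, Proc, Hrg, Hc, C4b, C6, C8a, C9, Cfi, C4bp, Masp1 and Itih3. Some were separated only narrowly. Cfi was at 534.6 CPM in Pak4_KO replicate 1 and 535.3 CPM in WT replicate 1. Masp1 was at 158.2 CPM in Pak4_KO replicate 1 and 158.6 CPM in WT replicate 3. Gaps for F12, Proc, C4b, C6 and Itih3 were also small. The gap was wider for C9, with Pak4_KO replicate 1 at 463 CPM and WT replicate 3 at 567 CPM. The count rests partly on the scaling, since in TPM only 6 genes were lower without overlap (Proc, Hrg, Hc, C8a, C9 and C4bp) and 2 were higher (Pros1 and Itih2). In TPM the shares over all tested genes were 3.72% lower and 11% higher without overlap. Hrg, Hc, C8a, C9 and C4bp were lower without overlap in each of the 13 alternatives that kept all 6 libraries. Some of these alternatives change only the test and reuse the same scaled values, so they amount to fewer than 13 separate checks.

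The difference was uneven across libraries. Pak4_KO replicate 3 had the lowest CPM of the 6 libraries for 25 of the 38 genes, and WT replicate 2 had the highest for 22. In TPM these counts were 22 and 17. Relative to each gene's mean, the median log2 CPM over the 38 genes was 0.06, -0.05 and -0.32 in Pak4_KO replicates 1, 2 and 3, against 0.03, 0.22 and 0.10 in WT replicates 1, 2 and 3. Pak4_KO replicate 1 thus lay within the WT range and Pak4_KO replicate 3 well below it. Without Pak4_KO replicate 3 the median log2 fold change was -0.08 for coagulation and -0.16 for complement. Without WT replicate 2 it was -0.22 and -0.21, and without Pak4_KO replicate 1 it was -0.32 and -0.34. For the other 6 genes it was -0.08 without Pak4_KO replicate 3 or WT replicate 3, and -0.22 and -0.20 without Pak4_KO replicate 2 and WT replicate 1.

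**Figure D2:**
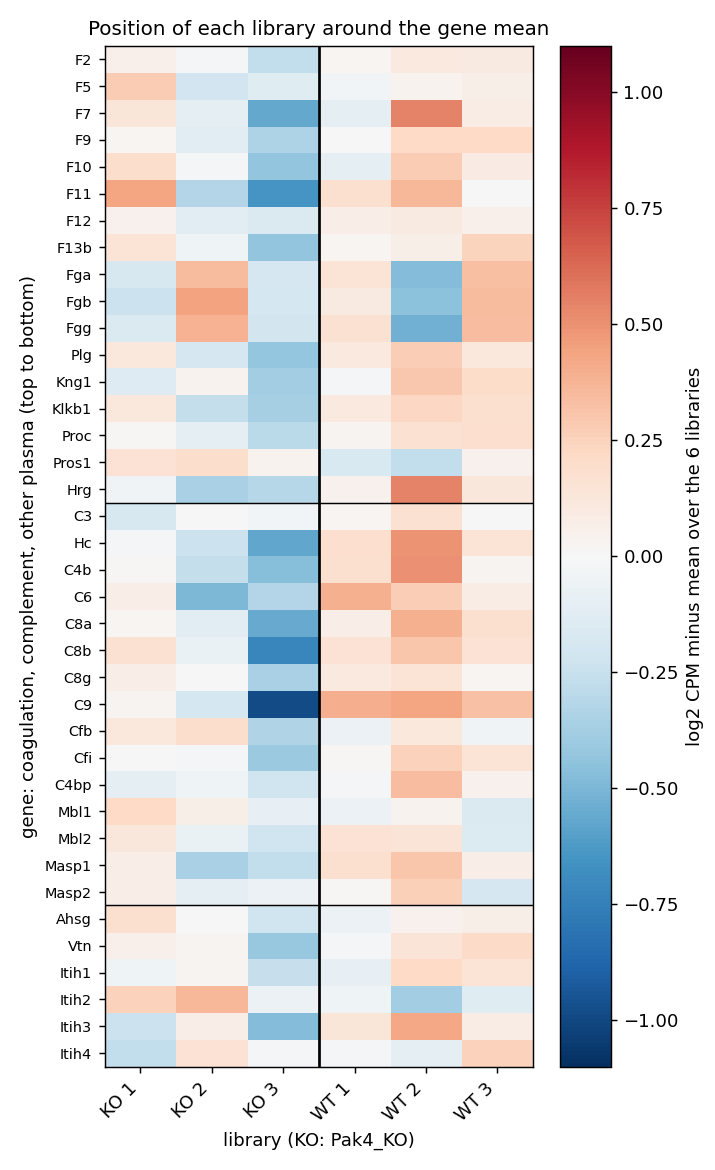
Colour shows each gene's log2 CPM in a library minus its mean over the 6 libraries, with the 3 Pak4_KO libraries left of the line and the 3 WT libraries right of it. Pak4_KO replicate 3 is blue for most genes and WT replicate 2 is red for most, while the 3 fibrinogen chains, Pros1 and Itih2 are blue in WT replicate 2.

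C9 and Hc, both terminal complement genes, had the largest negative differences among the 38. C9, whose product forms the ring of the membrane attack pore, stood at 379, 311 and 200.4 TPM in Pak4_KO replicates 1, 2 and 3, against 484, 469 and 434 TPM in WT replicates 1, 2 and 3. All 3 Pak4_KO libraries lay below all 3 WT libraries, and the Pak4_KO libraries were spread more widely. The log2 fold change of C9 was -0.71 (SE 0.24, 95% interval -1.26 to -0.16, edgeR adjusted p = 0.439), and it was -0.47 without Pak4_KO replicate 3.

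Hc, the mouse gene for complement C5, stood at 409, 337 and 299 TPM in Pak4_KO, against 468, 544 and 432 TPM in WT. These groups did not overlap either (log2 fold change -0.55, SE 0.18, edgeR adjusted p = 0.441). C6, which binds C5b and starts the complex, stood at 137, 88.9 and 112 TPM in Pak4_KO, against 170.0, 147 and 129 TPM in WT. Its TPM overlapped, with Pak4_KO replicate 1 above WT replicate 3, whereas its TMM-scaled CPM did not (log2 fold change -0.48, SE 0.17, edgeR adjusted p = 0.480).

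C8 is made of 3 chains from separate genes, alpha and beta related to C9 and the gamma chain a lipocalin. C8a stood at 493, 429 and 354 TPM in Pak4_KO, against 508, 594 and 510.2 TPM in WT (log2 fold change -0.42, SE 0.18, edgeR adjusted p = 0.613). C8b stood at 347, 283 and 201 TPM in Pak4_KO and at 344, 358 and 324 TPM in WT, so Pak4_KO replicate 1 lay inside the WT range. C8g stood at 301, 273 and 238 TPM in Pak4_KO and at 305, 294 and 271 TPM in WT, also with overlap. C8a and C8b, neighbours on chromosome 4 with 11130 bases between them, kept a similar ratio of levels, at 1.56 ± 0.174 in Pak4_KO and 1.57 ± 0.0901 in WT (SD, n = 3 each).

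The 6 terminal genes among the members (Hc, C6, C8a, C8b, C8g and C9) were also summed. Their level was 2066, 1723 and 1405 TPM in Pak4_KO, against 2279.8, 2406 and 2102 TPM in WT. This sum holds the values of C9, Hc and C8a given above, so it restates them and was not tested. C7, also part of the complex, was not a member, was low in every library and leaned the other way. It stood at 1.65, 1.86 and 1.46 TPM in Pak4_KO, against 1.32, 0.715 and 0.999 TPM in WT, without overlap. The log2 fold change of C7 was 0.64 (SE 0.27, edgeR adjusted p = 0.5965). The sum over all complement members overlapped, at 6788 to 7543 TPM in Pak4_KO and 7458 to 8605 TPM in WT. C3, the hub on which the pathways converge, differed less, at 2354, 2569 and 2798 TPM in Pak4_KO and 2682, 2801 and 2507 TPM in WT (log2 fold change -0.13, 95% interval -0.49 to 0.23, edgeR adjusted p = 0.912). The ratio of C9 to C3 within a library, which needs no scaling between libraries, was 0.161, 0.121 and 0.0716 in Pak4_KO, against 0.181, 0.167 and 0.173 in WT. The ratios did not overlap for C9 but did for Hc over C3 and C6 over C3. C9 was set over C3 after the values were seen, so this ratio restates the difference in C9 and adds no test of it.

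**Figure D3:**
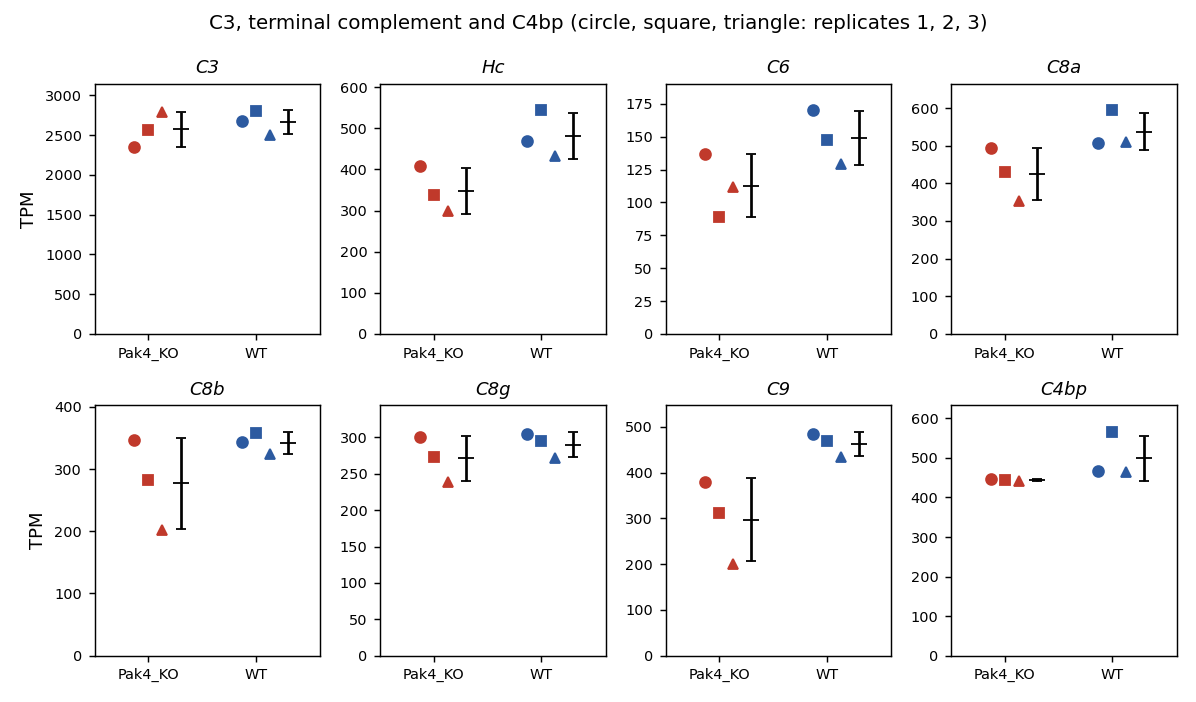
TPM in each library for C3, the terminal complement genes and C4bp, with Pak4_KO left and WT right, symbols for replicates 1 to 3, and the mean ± SD as a bar (n = 3 each). Hc, C8a, C9 and C4bp have all 3 Pak4_KO libraries below all 3 WT libraries, while C3, C6, C8b and C8g overlap.

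Upstream of C3, the picture was mixed. C4b, a precursor cleaved in the classical and lectin pathways, stood at 635, 502 and 486 TPM in Pak4_KO and 702, 828 and 601 TPM in WT (log2 fold change -0.47, SE 0.19, edgeR adjusted p = 0.560). Reads of C4b are uncertain because the C4a transcript is 96.0% identical to it over 5378 bases. Summed over C4a and C4b, the level was 1797 ± 303 CPM in Pak4_KO and 2506 ± 441 CPM in WT (SD, n = 3 each), a log2 ratio of -0.48. Cfb, the serine protease of the alternative pathway, stood at 809.5, 832 and 635 TPM in Pak4_KO and 729, 756 and 681 TPM in WT, with a log2 fold change of 0.002 (95% interval -0.39 to 0.39). The sign for Cfb turned in 11 of the 19 alternatives, and its counts are uncertain because Gm20547 shares 2248 identical bases with it.

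Among the lectin pathway genes, Masp1, a protease bound to mannose-binding lectin, was fitted at -0.36 on the log2 scale (SE 0.15, edgeR adjusted p = 0.575), with 80.9, 56.8 and 67.0 TPM in Pak4_KO and 85.1, 90.4 and 75.4 TPM in WT. Its TPM overlapped and its CPM did not. The protease gene Masp2 was at -0.07 (SE 0.15), and the lectins Mbl1 and Mbl2 were at 0.13 (SE 0.13) and -0.11 (SE 0.15), each with overlap between the groups. Exons of Masp2 and Tardbp overlap by 1742 bases on opposite strands, and since the strand setting of the counting is not given, Masp2 counts are uncertain.

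Both complement regulators had negative log2 fold changes. C4bp, which helps inactivate C4b, stood at 446, 444 and 442 TPM in Pak4_KO, against 467, 565 and 464 TPM in WT, without overlap (log2 fold change -0.25, 95% interval -0.58 to 0.08, edgeR adjusted p = 0.732). Cfi, the protease that cleaves C3b and C4b, stood at 446, 422 and 358 TPM in Pak4_KO and at 442, 493 and 461 TPM in WT, so that only its CPM was without overlap (log2 fold change -0.27, edgeR adjusted p = 0.739).

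In coagulation, the fibrinogen chains had the highest levels and no difference that could be resolved. They lie together on chromosome 3, with 11096 bases between Fgg and Fga and 8618 between Fga and Fgb. Their promoters are shown, with those of C9 and Hrg as the genes with the largest negative differences in each cascade. Whether promoter sequence bears on the levels of these genes was not tested. Each sequence is the 250 bases before the RefSeq start (GRCm38.p6), 5′ to 3′ on the gene's strand, from chr3:83007474-83007723 (plus) for Fgg, chr3:83025903-83026152 (plus) for Fga, chr3:83049864-83050113 (minus) for Fgb, chr15:6445096-6445345 (plus) for C9 and chr16:22950822-22951071 (plus) for Hrg. Capitals mark matches to the motifs named after them.
Fgg: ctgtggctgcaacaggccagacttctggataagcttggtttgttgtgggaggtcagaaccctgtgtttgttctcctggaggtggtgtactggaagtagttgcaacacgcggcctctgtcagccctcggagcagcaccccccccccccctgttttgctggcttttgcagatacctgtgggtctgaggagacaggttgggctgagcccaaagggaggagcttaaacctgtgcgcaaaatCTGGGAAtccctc
Fga: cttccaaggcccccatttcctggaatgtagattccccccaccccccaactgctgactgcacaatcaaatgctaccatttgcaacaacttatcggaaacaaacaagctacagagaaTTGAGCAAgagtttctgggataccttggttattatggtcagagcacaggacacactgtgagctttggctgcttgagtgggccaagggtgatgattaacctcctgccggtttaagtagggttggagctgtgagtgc
Fgb: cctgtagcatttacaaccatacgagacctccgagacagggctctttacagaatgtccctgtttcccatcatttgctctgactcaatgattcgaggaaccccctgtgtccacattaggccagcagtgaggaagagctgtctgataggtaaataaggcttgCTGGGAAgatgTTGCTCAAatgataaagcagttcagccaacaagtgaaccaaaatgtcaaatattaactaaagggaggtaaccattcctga
C9: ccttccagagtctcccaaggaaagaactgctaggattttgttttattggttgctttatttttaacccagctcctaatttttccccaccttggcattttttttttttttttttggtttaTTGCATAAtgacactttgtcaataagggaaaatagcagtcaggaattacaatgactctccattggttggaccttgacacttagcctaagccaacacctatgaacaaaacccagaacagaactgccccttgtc
Hrg: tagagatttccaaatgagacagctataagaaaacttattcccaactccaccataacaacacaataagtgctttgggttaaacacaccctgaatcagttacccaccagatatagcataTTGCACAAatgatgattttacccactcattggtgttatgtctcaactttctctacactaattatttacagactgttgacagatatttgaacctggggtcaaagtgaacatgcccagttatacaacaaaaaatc
The letters searched on both strands were TTGCNNAA for C/EBP, CTGGGAA for the interleukin-6 response element, GTTAAT followed by any base and ATT for HNF1, TGTTTAC for FOXA and CAAAGTCC for HNF4. Fgb held both a C/EBP and an interleukin-6 match, Fgg only the interleukin-6 match and Fga, C9 and Hrg only a C/EBP match, and no printed matches overlap. RefSeq promoters were found for 31 of the 38 genes, with 32 promoters among them. C/EBP letters were in 10 of the 32, against 9.56% of all 32851 promoters, and interleukin-6 letters were in 4 of the 32, against 9.10%. HNF1 letters were in 3 (C4bp, F13b and Hc), against 0.371%, FOXA letters in 2 (F11 and Klkb1), against 3.17%, and HNF4 letters in 0, against 1.20%. A match describes letters in this window and not a bound site.

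Fga, the alpha chain, stood at 7307, 10006 and 7706 TPM in Pak4_KO replicates 1, 2 and 3, against 8975, 5518 and 9634 TPM in WT replicates 1, 2 and 3. Fgb, the beta chain, stood at 13506, 20772 and 14870.0 TPM in Pak4_KO, against 16859, 10855 and 18930.0 TPM in WT. Fgg, the gamma chain, stood at 10311, 14454 and 10740.0 TPM in Pak4_KO, against 12822, 7450.3 and 13669 TPM in WT. Every chain was highest in Pak4_KO replicate 2 and lowest in WT replicate 2, and the groups overlapped widely. The ratio of Fgg to Fga varied only from 1.35 to 1.44, and that of Fgb to Fga from 1.85 to 2.08, over the 6 libraries. Log2 fold changes were -0.02 for Fga (95% interval -0.61 to 0.57), 0.01 for Fgb (-0.62 to 0.63) and -0.004 for Fgg (-0.62 to 0.61), with signs that turned in 7, 5 and 9 of the 19 alternatives. A change of up to about 1.5-fold either way lies inside these intervals, with an upper bound of 1.55-fold for Fgb and a lower bound of 0.651-fold for Fgg. F13b, the carrier subunit of the factor that cross-links fibrin, averaged 107 ± 17.9 TPM in Pak4_KO and 117 ± 7.99 TPM in WT (SD, n = 3 each).

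**Figure D4:**
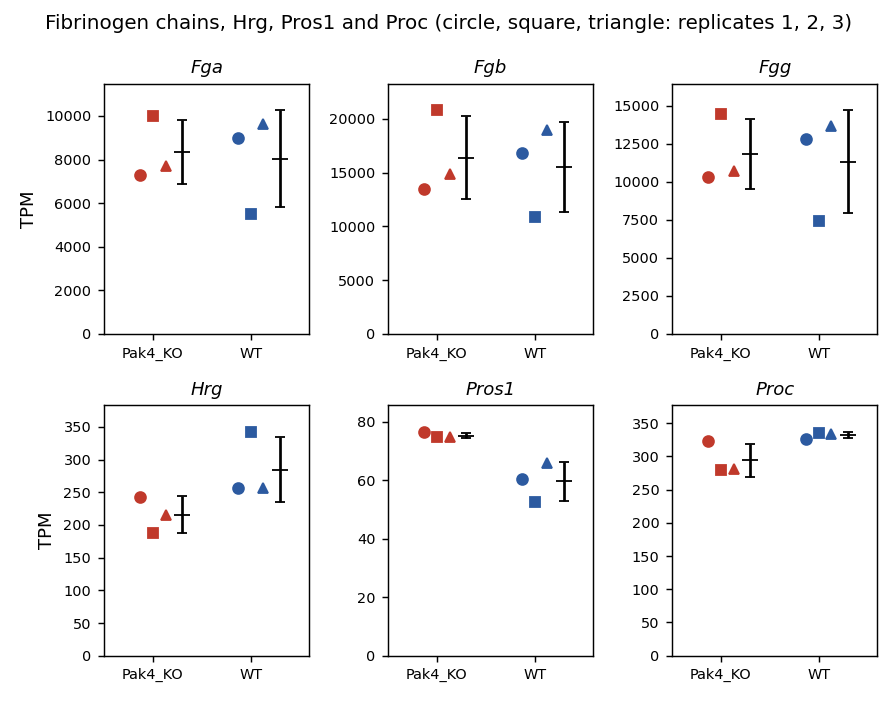
TPM in each library for the fibrinogen chains Fga, Fgb and Fgg and for Hrg, Pros1 and Proc, with Pak4_KO left and WT right, symbols for replicates 1 to 3, and the mean ± SD as a bar (n = 3 each). The fibrinogen chains share 1 pattern over the libraries, and Pros1 is the only gene in the plot with all Pak4_KO libraries above all WT libraries.

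Vitamin K-dependent factors, which need carboxylated glutamates to bind membranes, did not all lean the same way. Proc, the precursor of the anticoagulant activated protein C, stood at 323, 279 and 281 TPM in Pak4_KO, against 326, 335 and 334 TPM in WT, without overlap (log2 fold change -0.25, SE 0.13, edgeR adjusted p = 0.703). Pros1, which encodes protein S, its cofactor and also a ligand of TAM receptors, stood at 76.4, 74.6 and 74.8 TPM in Pak4_KO, against 60.3, 52.6 and 66.0 TPM in WT (log2 fold change 0.25, SE 0.13, edgeR adjusted p = 0.683). TPM values of Pros1 did not overlap, but its CPM did, with Pak4_KO replicate 3 at 134 CPM and WT replicate 3 at 135 CPM. The ratio of Pros1 to Proc was 0.237, 0.267 and 0.266 in Pak4_KO, against 0.185, 0.157 and 0.198 in WT, a ratio also chosen after the values were seen and not tested.

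The procoagulant members of that family overlapped between the groups. F2, the prothrombin gene, averaged 1186 ± 98.5 TPM in Pak4_KO and 1247 ± 0.834 TPM in WT (SD, n = 3 each), with a log2 fold change of -0.15. F9, the factor missing in haemophilia B, had a log2 fold change of -0.29 (95% interval -0.61 to 0.04), and the neighbours F7, the partner of tissue factor, and F10, whose product cuts prothrombin, had -0.35 (SE 0.22) and -0.16 (SE 0.19). F5, the cofactor of factor Xa, was at -0.03 (SE 0.16), with a sign that turned in 5 of the 19 alternatives.

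The contact system genes all had negative log2 fold changes, none of them past the test. Kng1, the kininogen that releases bradykinin, stood at 1442, 1574 and 1291 TPM in Pak4_KO and at 1556, 1837 and 1710.5 TPM in WT (log2 fold change -0.32, SE 0.17, edgeR adjusted p = 0.694). Its copy Kng2 is 91.8% identical over 1345 bases, so reads could be split between them. Summed over Kng1 and Kng2, the level was 2001 ± 276 CPM in Pak4_KO and 2437 ± 249 CPM in WT (SD, n = 3 each). The log2 ratio of these means was -0.28, and the groups overlapped. Klkb1, the plasma prekallikrein gene, was at -0.33 (SE 0.15), and its neighbour F11, with 4632 bases between the genes, was at -0.29 (SE 0.26). Klkb1 shares exon sequence with the predicted gene Gm45753 on the same strand, which makes its counts uncertain. F12, which starts the contact phase, stood at 324, 278 and 301 TPM in Pak4_KO and at 328, 314 and 306 TPM in WT, with no overlap in CPM and overlap in TPM (log2 fold change -0.15, SE 0.12, edgeR adjusted p = 0.836).

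Hrg, the histidine-rich glycoprotein that binds heparin, plasminogen and fibrinogen, had the largest negative difference of the coagulation genes. It stood at 244, 188 and 216 TPM in Pak4_KO, against 256, 342 and 256 TPM in WT, without overlap (log2 fold change -0.49, SE 0.17, 95% interval -0.88 to -0.10, edgeR adjusted p = 0.469). WT replicate 2 was far above the other WT libraries, and the log2 fold change was -0.32 without it. Plg, the precursor of the fibrin-cleaving protease plasmin, averaged 802 ± 135 TPM in Pak4_KO and 947 ± 48.8 TPM in WT (SD, n = 3 each; log2 fold change -0.32, edgeR adjusted p = 0.702). An exon of Plg overlaps Slc22a3 on the opposite strand by 420 bases.

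Inter-alpha-trypsin inhibitor heavy chains, some of which are linked to hyaluronan in the matrix, leaned in opposite directions. Itih2 stood at 878, 908 and 751 TPM in Pak4_KO, against 704, 526 and 628 TPM in WT, and had the largest positive log2 fold change of the 38 genes (0.38, SE 0.17, 95% interval -0.01 to 0.77, edgeR adjusted p = 0.624). Its TPM did not overlap, whereas its CPM did by Pak4_KO replicate 3 at 1269 CPM and WT replicate 1 at 1285 CPM. Itih3 stood at 1189.5, 1417 and 1078 TPM in Pak4_KO, against 1525, 1756 and 1382 TPM in WT (log2 fold change -0.42, SE 0.19, edgeR adjusted p = 0.631). Pak4_KO replicate 2 lay above WT replicate 3 in TPM, and the CPM of Itih3 did not overlap.

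Within each library, the ratio of Itih2 to Itih3 was 0.738, 0.640 and 0.696 in Pak4_KO, against 0.461, 0.299 and 0.454 in WT. The ratio of Itih2 to Itih1 was 1.87, 1.91 and 1.72 in Pak4_KO, against 1.56, 1.00 and 1.24 in WT, and neither ratio overlapped between the groups. These ratios were chosen after the values were seen and were not tested. Itih3, Itih1 and Itih4 lie side by side on chromosome 14, and Itih2 lies on chromosome 2. Itih1 and Itih4 had log2 fold changes of -0.18 (SE 0.15) and -0.08 (SE 0.18), with overlap. Itih4 stood at 2454, 3173 and 3125 TPM in Pak4_KO, against 2892, 2560.5 and 3297.5 TPM in WT (edgeR adjusted p = 0.962).

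**Figure D5:**
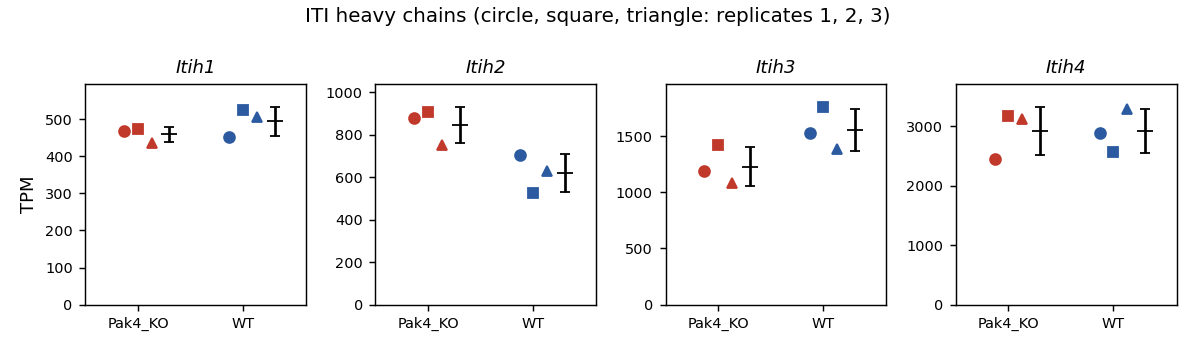
TPM in each library for the heavy chain genes Itih1, Itih2, Itih3 and Itih4, with Pak4_KO left and WT right, symbols for replicates 1 to 3, and the mean ± SD as a bar (n = 3 each). Itih2 has all 3 Pak4_KO libraries above all 3 WT libraries, and the other 3 genes overlap in TPM.

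Ahsg, which encodes the mineral-binding fetuin-A, averaged 5412 ± 608 TPM in Pak4_KO and 5195 ± 81.3 TPM in WT (SD, n = 3 each; log2 fold change -0.02, 95% interval -0.40 to 0.35). Vtn, the vitronectin gene, whose product binds the terminal complement complex and the plasminogen activator inhibitor, averaged 2369 ± 314 TPM in Pak4_KO and 2596 ± 138 TPM in WT (log2 fold change -0.21, 95% interval -0.61 to 0.19).

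Partners of these genes were examined in lists by role, and none had a called member. Of 31 tested coagulation partners, 11 were positive and 20 negative (median log2 fold change -0.09), and of 30 tested complement partners 7 were positive and 23 negative (median -0.17). The smallest p-values among coagulation partners were those of Plat, the tissue plasminogen activator, with a log2 fold change of 1.27 (edgeR adjusted p = 0.255, SE 0.33), and Gas6, a vitamin K-dependent relative of protein S, at 0.69 (SE 0.20, edgeR adjusted p = 0.303). Plat was low in every library, at 2.27, 1.52 and 1.42 TPM in Pak4_KO, against 0.974, 0.555 and 0.530 TPM in WT. Gas6 stood at 30.0, 35.9 and 54.8 TPM in Pak4_KO, against 22.5, 25.3 and 22.0 TPM in WT. Serpinc1, the antithrombin gene, was at -0.004 (95% interval -0.33 to 0.32).

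Among complement partners, Cfd, the factor D protease made mainly by fat cells, stood at 0.410, 5.51 and 5.18 TPM in Pak4_KO, against 0, 0.147 and 0 TPM in WT (edgeR adjusted p = 0.138). Cd55, a membrane inhibitor of complement, was at 0.45 (SE 0.13, edgeR adjusted p = 0.322). Of 10 tested inhibitor partners, 8 were negative (median -0.34), with the smallest p-values for Bmper, a secreted regulator of bone morphogenetic proteins, at 0.87 (SE 0.20, edgeR adjusted p = 0.172), and Itih5, another heavy chain gene, at 1.09 (SE 0.29, edgeR adjusted p = 0.270).

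Transcription factors and signalling genes listed as possible regulators had a median log2 fold change of -0.05 over 17 tested. Their action on the promoters of the members was not tested. Foxa3 had the smallest p of them, at 13.3, 16.7 and 13.6 TPM in Pak4_KO, against 19.7, 22.5 and 25.5 TPM in WT (log2 fold change -0.72, SE 0.18, edgeR adjusted p = 0.235). Foxa2 was at -0.35 (SE 0.14, edgeR adjusted p = 0.542). Of 16 acute-phase genes, which include Itih4, 14 were negative (median -0.20), with Saa4 at -0.77 (SE 0.17, edgeR adjusted p = 0.162) and Saa2 at -0.78 (SE 0.23, edgeR adjusted p = 0.315).

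Markers of other liver cells were examined beside these values, because C1q, factor VIII and von Willebrand factor come mainly from non-hepatocytes and platelets carry factor V and protein S. Some markers are also among the partners above, such as C1qa, C1qb, C1qc, Vsig4, Vwf, F13a1 and Colec10, so the lists are not independent. Summed Kupffer cell and macrophage markers (12 of 12 tested, 12 negative) ranged from 372 to 493 TPM in Pak4_KO and from 439.6 to 560.1 TPM in WT. Endothelial markers (10 of 10 tested, 10 positive) ranged from 132 to 200.2 TPM in Pak4_KO and from 116 to 147 TPM in WT. Platelet and megakaryocyte markers (4 of 9 tested, 4 negative, with Gp1ba at 0 in every library) ranged from 6.33 to 8.15 TPM in Pak4_KO and from 5.83 to 16.2 TPM in WT. Neutrophil markers (6 of 10 tested, 6 negative) ranged from 59.2 to 68.7 TPM in Pak4_KO and from 84.2 to 146 TPM in WT, without overlap. Stellate markers (10 of 10 tested, 9 positive) ranged from 132 to 251 TPM in Pak4_KO and from 122 to 188 TPM in WT. Cholangiocyte markers (7 of 7 tested, 6 positive) ranged from 46.0 to 83.7 TPM in Pak4_KO and from 32.0 to 54.3 TPM in WT. Lymphocyte markers (7 of 10 tested, 2 positive) ranged from 23.1 to 34.1 TPM in Pak4_KO and from 11.6 to 12.9 TPM in WT, without overlap. That sum was mostly Igkc and Jchain, both genes of plasma cells, and the other 8 markers summed to 1.25 to 1.69 TPM in Pak4_KO and 2.13 to 4.74 TPM in WT. The part of these cells in the plasma protein genes was not tested.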

How the data were processed

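RNA was extracted with Trizol from liver kept in RNAlater, and, per the labels' protocols, a TruSeq stranded mRNA kit gave the libraries. Among the tools in the submitters' processing notes are StringTie 2.1.3b, HISAT2 2.1.0 and Bowtie2 2.3.4.1, with the build mm10. Sources used here do not state their roles, the annotation, how strand was set or how multi-mapping reads were counted.

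Read counts per gene were deposited as whole numbers without normalization, per the file headers. The deposited TPM, scaled by the authors for length and library total, gave levels, sums and ratios. The deposited FPKM were not used.

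Counts of Pak4_KO and WT were compared with edgeR 4.0.16 (R 4.3.3) by the quasi-likelihood F-test over 6 libraries, after filterByExpr (16197 genes) and TMM, two-sided, with Benjamini-Hochberg adjustment over all genes tested. The standard error is the absolute log2 fold change over the square root of F, and 95% intervals use the t quantile of the fit and cover 1 gene at a time. Adjusted p-values in the text are from this fit. The same steps were run on simulated counts, drawn independently for each gene and with planted changes larger than the differences of the members. That run does not measure how well differences of the members' size are found.

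The members and lists were chosen with earlier results of these data known. By the rule, the members called, without overlap or among the 4 most abundant of their list were to be described in full. The rule added Pak4 and up to 4 called genes, or the 2 with the smallest p, from each list of partners. Ahsg and Vtn, among the most abundant of their list, were given as group means only. Some other genes are named as chosen after their values were seen, among them Serpinc1, C4a, Kng2, Gm45753 and genes that overlap or neighbour a member. Coordinates and promoters are from RefSeq GRCm38.p6, the build also called mm10. Exon overlaps and near copies (blastn 2.17.0, at least 85% identity over 0.3 of the transcript) are from GENCODE M21.

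No 2 libraries of a group agreed within sampling noise (chi-square per gene from 59.9 to 119). Alternatives were other scalings, filters and tests (DESeq2 1.42.0, and limma 3.58.1 as voom or as a trend fit of log2(TPM + 1) or log2(TPM + 0.1)), leaving out single libraries, and a fit with replicate number as block. A fit of protein-coding genes only, and counts of genes without overlap under each scaling, were added after the data were seen.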

Additional observations from a re-analysis of the deposited data

How the results depend on the processing

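No alternative called a member, so the count of called coagulation, complement and other plasma genes was 0 in each of the 19, and the 3 list medians stayed negative. Over the alternatives the coagulation median (-0.21) ran from -0.32 without Pak4_KO replicate 1 to -0.08 without Pak4_KO replicate 3. The complement median (-0.27) ran from -0.34 without WT replicate 1 to -0.16 without Pak4_KO replicate 3. The other plasma median (-0.13) ran from -0.22 without Pak4_KO replicate 2 to -0.05 in TPM, and was -0.08 with library size only. The smallest adjusted p of a member over these alternatives was 0.124, for C9 with DESeq2. Over all genes the 76 calls became 334 with DESeq2, 44 with at least 10 reads in every library and 41 with protein-coding genes only. Leaving out 1 library gave 37 to 81 calls, with 38 without Pak4_KO replicate 2, 37 without Pak4_KO replicate 3, 44 without WT replicate 1 and 46 without WT replicate 2. The 12 members lower without overlap (6.06% of all genes) became 7 (6.01%) with upper quartile factors and 6 (3.72%) with log2(TPM + 1) or log2(TPM + 0.1). It became 8 with library size only (4.41%) or at least 10 reads in every library (5.87%). Leaving out 1 library gave 12 to 22, with 22 without Pak4_KO replicate 1 (12.4% of all genes) and 21 without WT replicate 1 (9.65%), where fewer libraries make overlap less likely. The 0 members higher without overlap (7.35% of all genes) became 2 with library size only (9.5%), log2(TPM + 1) or log2(TPM + 0.1) (11%). It was 0 to 4 with 1 library left out, with 1 without WT replicate 1 (10.6%), 1 without WT replicate 3 (12.3%) and 4 without Pak4_KO replicate 3 (11.5%). The cause of these shifts was not tested.

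Whether replicate numbers pair the libraries could not be settled. Same-numbered libraries correlated in their deviations from the group means at 0.07, -0.20 and 0.15. Pak4_KO replicate 1 correlated best with WT replicate 2 (0.19) and Pak4_KO replicate 2 with WT replicate 3 (0.14). Pak4_KO replicate 3 correlated best with its own number. With 3 libraries in a group the deviations are tied to each other, so these values cannot exclude pairing. With the replicate number as a block the count of calls was 73. Each member had at least 1476 reads in each library, and the number of libraries limits the precision.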
